A study of Mus musculus with 22 samples.

Results

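The transcripts described here are 7 genes that mark the lining of the mouse airways and air sacs, measured in heart RNA. Scgb1a1, Scgb3a2 and Cyp2f2 belong to club cells, Foxj1 to ciliated cells, and Sftpb, Sftpc and Sftpd to the surfactant of the alveoli. The set was named for its cell types and located on the arrays through the RefSeq accession of each probe. Of the 7 genes, 6 had a probe, 1 each, and 2 of these (Scgb1a1 and Cyp2f2) were well above background often enough to be tested, among 15503 genes tested in all. Scgb3a2 had no probe matched through these accessions and was not analysed here.

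Heart RNA of 22 female C57BL/6 mice was hybridised to Agilent 2-colour arrays, 1 mouse per array, on 9 slides scanned on 3 days. The mice were bought at 5 to 7 weeks of age and acclimatised for 1 to 3 weeks. Once per mouse, 40 µl of saline with lavage fluid freed of cells was instilled through the trachea, plain in controls and with 162 µg of nano-TiO2 (nanosized titanium dioxide) in the treated mice. The 5 hearts called control day 1 and the 5 called nano-TiO2 day 1 were taken at 1 day, and 6 hearts of each treatment (control day 28, nano-TiO2 day 28) at 28 days. Heart RNA was labelled with Cy5. A common reference RNA from 11 mouse cell lines carried Cy3 throughout. Dyes were never swapped, so a dye effect of a probe stays in its level but is shared by all groups. Replicates were numbered in the order of the samples, since the labels give no numbers. Slides held mixed groups: each of the 6 slides with day 28 mice of both treatments held 1 control and 1 nano-TiO2 heart of that day, with equal numbers.

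The labels are at odds on the tissue: tissue label and collection text name the heart, while the extraction text names lung. The cardiac muscle genes Myh6, Tnnt2 and Actc1 were well above background on all 22 arrays, with log2 heart over reference of 4.95 ± 0.25 (SD, n = 19), 5.66 ± 0.22 (n = 21) and 5.96 ± 0.36 (n = 22), where a lower n leaves out arrays with a marked spot. The share of probes detected in Cy5 ran from 32.7% to 52.8% over the arrays. In RNA from a whole organ, fewer cells of a type and less RNA per cell cannot be told apart.

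The conducting airways are lined by secretory club cells and by ciliated cells that sweep mucus upward. Club cells secrete small proteins of the secretoglobin family and carry cytochrome P450 enzymes that oxidise inhaled compounds. In the alveoli, type 2 cells make surfactant, a film of lipid and protein that keeps the air sacs open, while the collectin SP-D binds microbes and is also made by airway cells. Heart muscle has none of these cell types.

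The club cell genes and Sftpd were bright in a few hearts, and Sftpb, Sftpc and Foxj1 stayed dark in all 22. Scgb1a1 was well above background in 6 of 22 hearts, Cyp2f2 in 8 and Sftpd in 2, whereas Sftpb, Sftpc and Foxj1 reached it in 0 of 22. "Well above background" is the scanner software's flag for the Cy5 spot. The highest values of Scgb1a1, Cyp2f2 and Sftpd came from the same 2 hearts, both vehicle controls of day 28, named replicates 1 and 5. They lay on different slides (slide 6 and slide 1) and were scanned on different days (day 2 and day 3 of 3).

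**Figure D1:**
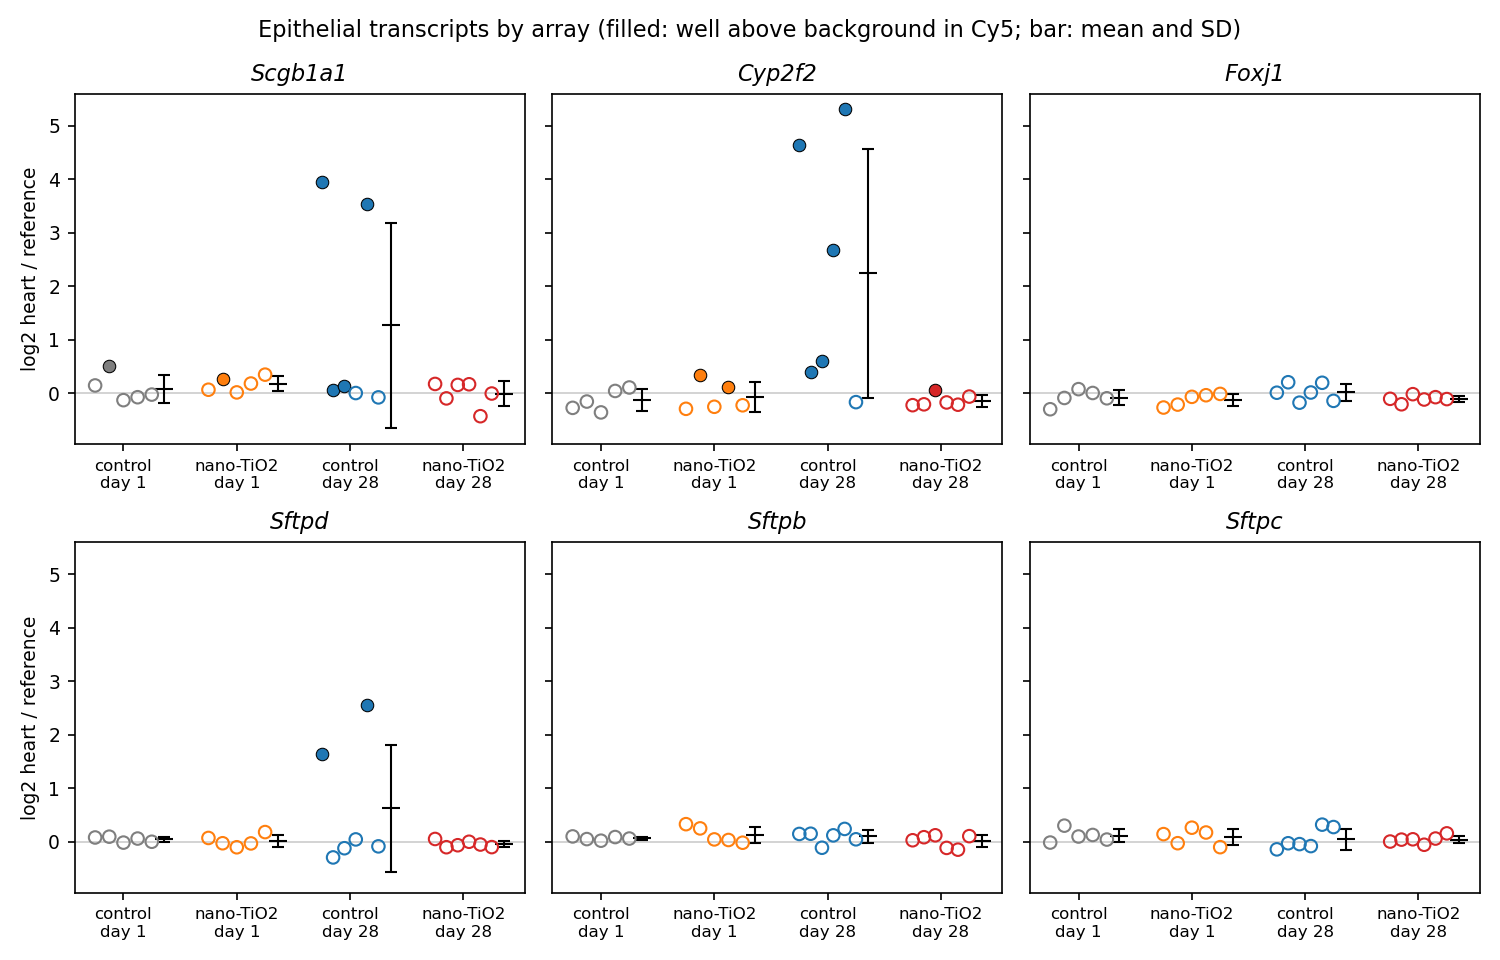
Log2 heart over reference (y axis) of the 6 epithelial transcripts with a probe, for each mouse in the 4 groups (x axis). Filled points were well above background in Cy5, and the bars give the mean and SD of 5 or 6 mice. Scgb1a1 at 3.95 and 3.54, Cyp2f2 at 4.64 and 5.31 and Sftpd at 1.64 and 2.55 stand out in 2 control hearts of day 28, and Sftpb, Sftpc and Foxj1 stay between -0.30 and 0.33.

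Scgb1a1 (probe A_51_P128575, gene at chr19:9083642-9087956 in GRCm38.p6) encodes club cell secretory protein, the most abundant secreted protein of the small airways. Its log2 ratios in the 5 day 1 controls were 0.14, 0.52, -0.13, -0.08 and -0.03, with 1 heart well above background. The 5 hearts taken 1 day after nano-TiO2 gave 0.06, 0.27, 0.01, 0.18 and 0.35, again with 1 well above background. The 2 day 1 groups thus overlapped over nearly their whole ranges. In the day 28 controls 4 of 6 hearts were well above background, and the values were 3.95, 0.05, 0.14, 0.00, 3.54 and -0.08. Replicates 1 and 5 stood more than 3 log2 units above the next heart, and the other 4 lay within the range of day 1. After nano-TiO2 at day 28 the values ran from -0.43 over a median of 0.07 to 0.17, and 0 of 6 hearts were well above background.

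The brightness behind these ratios differed more than the ratios did. The net Cy5 intensity of the Scgb1a1 spot, signal minus local background, was 2789 in control day 28 replicate 1 and 5033 in replicate 5. In the other 20 hearts it ranged from -4 to 25.5, with a median of 11. Those 20 values lie close to the brightness of the arrays' negative control spots, 95% of which fell below 6 to 11 depending on the array. The net Cy3 intensity of the same spot was 426 and 1326 in the 2 hearts and 3.5 to 23 in the others, although the reference RNA was the same throughout. Cy3 came to 15.3% and 26.4% of Cy5 there, so the log2 ratio is smaller than the difference in Cy5 between hearts. What raised Cy3 was not tested. At the Cyp2f2 spot Cy3 was 100 and 167.5 in the same 2 hearts, 6.53% and 5.65% of Cy5, against 23.5 to 44 elsewhere.

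**Figure D2:**
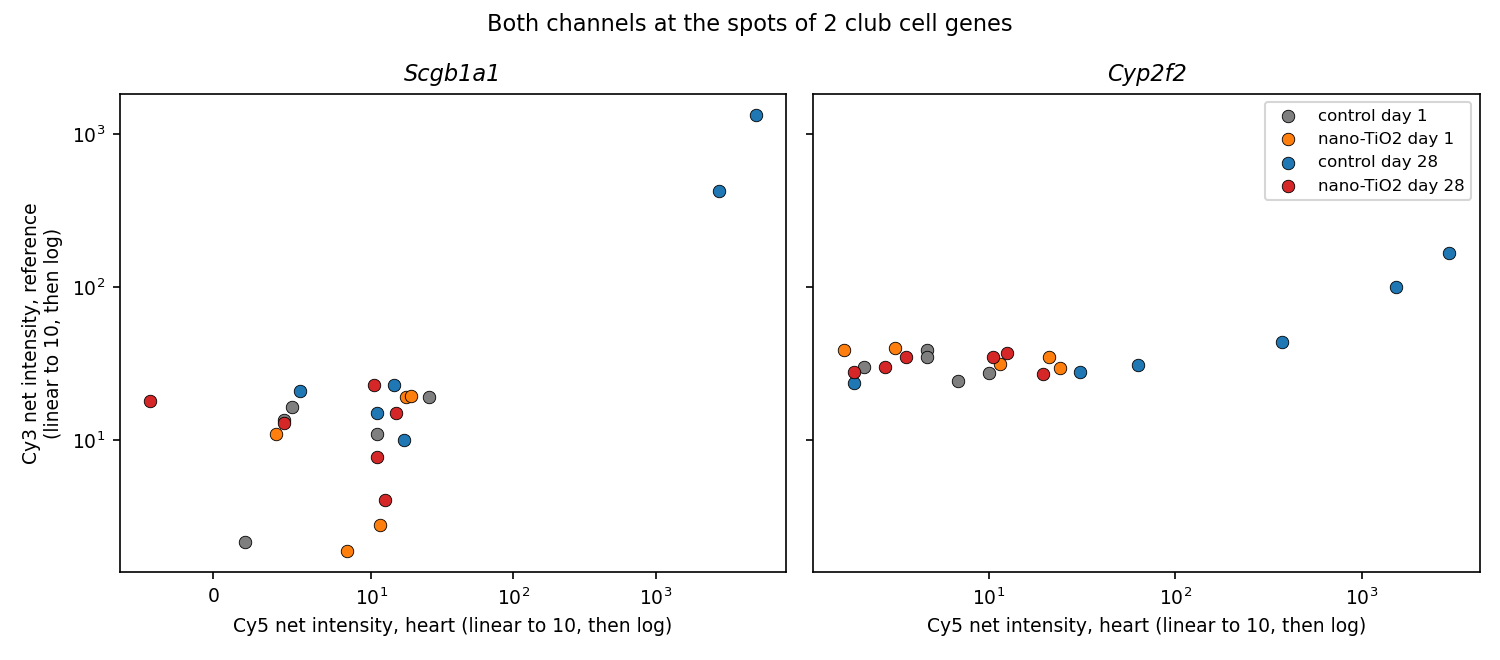
Net Cy5 intensity (x axis) against net Cy3 intensity (y axis) of the Scgb1a1 and Cyp2f2 spots, 1 point per mouse, on axes that are linear up to 10 and logarithmic above. The 2 control hearts of day 28 with the brightest Cy5 (2789 and 5033 for Scgb1a1) also have the highest Cy3 (426 and 1326).

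Cyp2f2 (probe A_51_P453909, gene at chr7:27119955-27133660) encodes a cytochrome P450 of club cells that activates naphthalene, and it is also made in mouse liver. In the day 1 controls its log2 ratios were -0.28, -0.16, -0.36, 0.04 and 0.11, with 0 of 5 hearts well above background. The nano-TiO2 hearts of day 1 gave values of -0.29, 0.34, -0.26, 0.11 and -0.23, and 2 of 5 were well above background. The 2 groups overlapped. The day 28 controls gave 4.64, 0.40, 0.61, 2.67, 5.31 and -0.17, with 5 of 6 well above background and net Cy5 intensities between 3.5 and 2962.5. Unlike Scgb1a1, Cyp2f2 formed a graded series among these 6 mice, with replicate 4 at a net Cy5 of 373 between the brightest pair and the rest. The nano-TiO2 hearts of day 28 ran from -0.23 over a median of -0.19 to 0.06, with 1 of 6 well above background, so 5 of the 6 controls exceeded every treated heart.

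Replicate 4 also had the most liver RNA signal. All 26 measured genes of a liver list, which covers secreted plasma proteins and hepatic enzymes, were well above background there, with a mean log2 ratio of 3.25. Scgb1a1 in that heart was 0.00. Replicate 1 had 24 of the 26 liver genes at a mean of 2.83, and replicate 5, the heart with the highest Cyp2f2, had 12 at a mean of 1.21. Over all 22 hearts the liver mean ran from 0.07 to 3.25, and nano-TiO2 day 1 replicate 2, the highest outside the day 28 controls at 1.66, had Cyp2f2 at 0.34. Albumin (Alb) was 5.29 in replicate 4, 5.20 in replicate 1 and 2.07 in replicate 5. The part of liver RNA in the Cyp2f2 values was not tested.

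**Figure D3:**
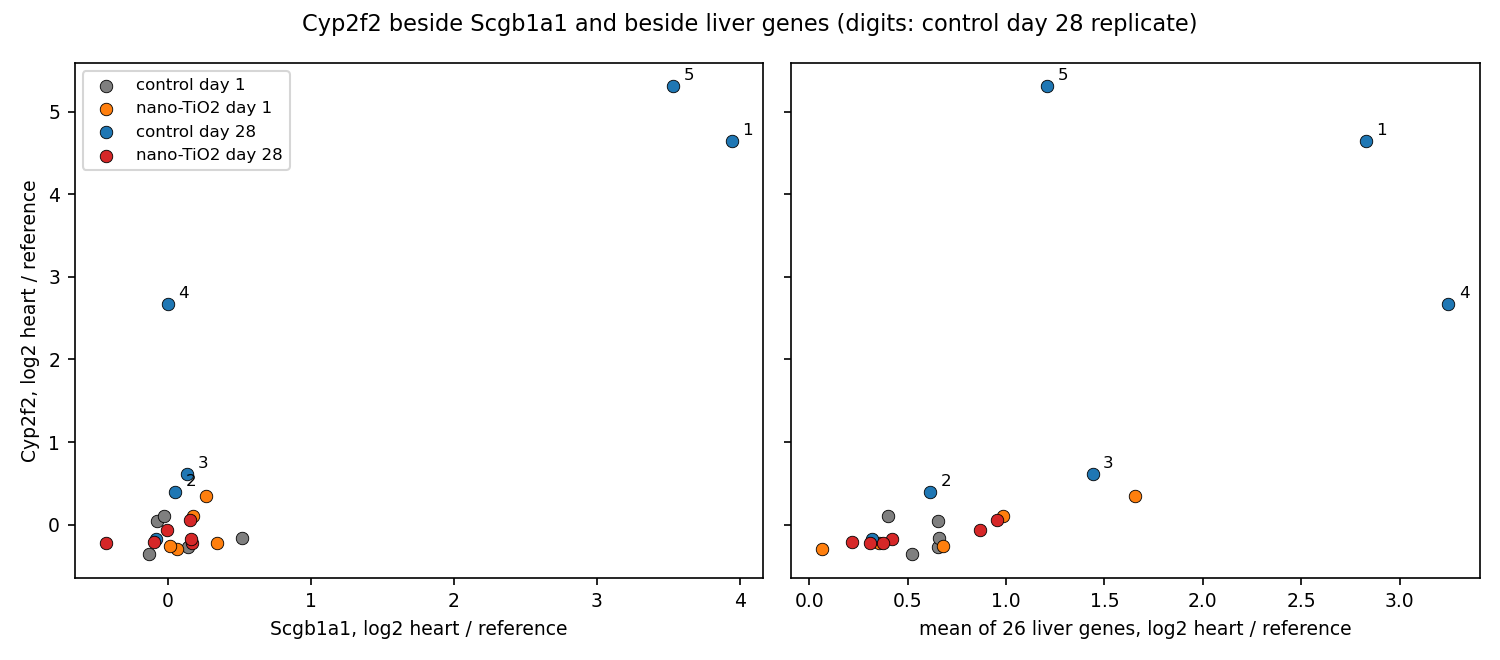
Cyp2f2 (y axis, log2 heart over reference) against Scgb1a1 (left) and against the mean of 26 liver genes (right), 1 point per mouse, with digits naming the replicates of the day 28 controls above 0.38 in Cyp2f2. Replicate 4 has Cyp2f2 at 2.67 with Scgb1a1 at 0.00 and the highest liver mean, 3.25, while replicate 5 has the highest Cyp2f2, 5.31, at a liver mean of 1.21.

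Sftpd (probe A_51_P359822, gene at chr14:41172212-41185198) encodes the collectin SP-D. Its log2 ratio was 1.64 in control day 28 replicate 1 and 2.55 in replicate 5, with net Cy5 intensities of 74 and 144. In the other 20 hearts the ratio ran from -0.30 to 0.18 and Cy5 from -7 to 7. Sftpd was dark in Cy3 on every array, including these 2, where net Cy3 was -2 and -1.5. It thus marked the same 2 hearts as Scgb1a1, and no other heart reached detection.

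The surfactant genes Sftpb and Sftpc were not detected beside Sftpd. Sftpa1, which encodes another surfactant collectin, was well above background in the same hearts as Sftpd and in no other, at log2 ratios of 1.52 and 1.65. Sftpb (probe A_51_P269134) encodes SP-B, a hydrophobic protein needed to spread surfactant, and Sftpc (probe A_51_P328001) encodes SP-C, made only by type 2 cells. Net Cy5 of Sftpb was at most 10 and that of Sftpc at most 15 in any of 22 hearts. Foxj1 (probe A_51_P456870), the transcription factor that switches on the genes of motile cilia, was at most 10.5. For Sftpb, Sftpc and Foxj1 the arrays give only a bound, and a difference between groups was not detectable. In Cy3 the probes of Sftpb and Sftpc were well above background on 0 of 22 arrays and that of Foxj1 on 1. Whether these probes can give a signal was not tested, so their darkness does not show that the RNA was absent.

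The upstream sequence was available from RefSeq (GRCm38.p6) for 2 of the 7 genes, Cyp2f2 and Sftpb, and these are shown as a bright and a dark member, together with Scgb3a1, the gene whose values were most like those of Scgb1a1. Each is the 250 bases before the annotated start, on the plus strand, 5′ to 3′: chr7:27119705-27119954 for Cyp2f2, chr6:72304360-72304609 for Sftpb and chr11:49663345-49663594 for Scgb3a1. Capitals mark the letters TCAAG, the core bound by NKX2-1, and TNTTTNC, a forkhead core, searched on both strands.
Cyp2f2: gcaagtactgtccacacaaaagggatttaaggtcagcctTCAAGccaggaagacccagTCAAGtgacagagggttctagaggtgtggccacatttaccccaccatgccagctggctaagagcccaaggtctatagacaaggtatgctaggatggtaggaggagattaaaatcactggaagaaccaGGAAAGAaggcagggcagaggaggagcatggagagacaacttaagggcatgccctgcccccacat
Sftpb: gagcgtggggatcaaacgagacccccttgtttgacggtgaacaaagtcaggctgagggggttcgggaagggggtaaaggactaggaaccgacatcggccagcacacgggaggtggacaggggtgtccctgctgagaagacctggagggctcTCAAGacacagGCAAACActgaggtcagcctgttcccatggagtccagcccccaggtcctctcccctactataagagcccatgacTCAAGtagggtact
Scgb3a1: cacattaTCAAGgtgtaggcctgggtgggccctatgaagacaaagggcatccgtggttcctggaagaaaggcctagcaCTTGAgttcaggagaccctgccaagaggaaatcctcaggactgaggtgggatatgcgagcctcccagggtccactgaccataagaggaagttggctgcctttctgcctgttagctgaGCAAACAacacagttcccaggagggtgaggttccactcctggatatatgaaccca
All 3 held 2 matches to TCAAG and 1 to TNTTTNC on the reverse strand, with no overlap between motifs. Of 32851 promoters of the same length, 35.9% held TCAAG at least 1 time and 48.1% held TNTTTNC at least 1 time, so such letters are common. The share with 2 matches to TCAAG was not counted. The bright and the dark gene did not differ in these counts.

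Nano-TiO2 against control at day 28 asks whether the particles in the lung went along with a change in the heart. Scgb1a1 was lower by 1.27 ± 0.54 (SE) on the log2 scale in 6 treated against 6 control hearts, with an adjusted p of 0.637 (limma, Benjamini-Hochberg over 15503 genes). Cyp2f2 differed by -2.38 ± 0.64 with an adjusted p of 0.637, so neither gene passed the threshold. Of all genes 0% passed (0 of 15503), and 7.59% had an unadjusted p under 0.05. Both epithelial genes met the filter of 5 arrays through the day 28 controls, which gave 4 of the 6 detections of Scgb1a1 and 5 of the 8 of Cyp2f2. Entry to the test thus depended on the group in which they are high, and no support is drawn from how many of them had a low p. Since 0 of 6 treated hearts showed Scgb1a1 above background, their Cy5 gives only an upper bound. Against that bound the control mean was 4.57-fold brighter, with normalized log2 Cy5 means of 8.35 in controls and 6.13 in treated hearts. The control mean rests on replicates 1 and 5, at 12.21 and 13.13. The other controls lay between 6.12 and 6.27 and the treated hearts between 5.83 and 6.27, so this is no lower limit on the group difference. Cy5 alone, a choice made after seeing the Cy3 values, gave -2.22 ± 0.93 for Scgb1a1 (adjusted p = 0.836).

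These differences rested on few mice. Without control replicates 1 and 5, a choice made after seeing the data, Scgb1a1 differed by -0.04 at day 28 and Cyp2f2 by -1.02. Without replicate 1 alone Scgb1a1 was -0.74, and without replicate 5 alone Cyp2f2 was -1.77. Within the 6 slides that held 1 mouse of each group, Scgb1a1 was lower after nano-TiO2 on 3, with -3.97 and -3.78 on the slides of replicates 5 and 1 and -0.15 to 0.16 on the other 4. Cyp2f2 was lower on 5 of the 6 slides, between -5.52 and 0.10. Within scan days the Scgb1a1 difference ran from -1.96 to 0.09 and the Cyp2f2 difference from -2.74 to -1.70.

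Between the control groups, Cyp2f2 was higher at day 28 than at day 1 by 2.37 ± 0.68 (adjusted p = 0.0277, limma over 15503 genes, 6 against 5 hearts). In this comparison 10.5% of all genes passed, and 25.4% had an unadjusted p under 0.05. As Cyp2f2 entered the test through the day 28 controls, it was also fitted with no filter on detection, where it had an adjusted p of 0.0469 over 33269 genes (limma). With 0 of 5 day 1 controls above background, their Cy5 mean is only an upper bound. Against it the Cyp2f2 mean of the day 28 controls was 5.37-fold brighter, with normalized log2 Cy5 means of 8.69 and 6.26. This is a ratio of means and no lower limit on the difference between the groups. Scgb1a1 differed by 1.18 ± 0.56 (adjusted p = 0.189), in the same direction but not past the threshold. The call was lost with slide as a block (3.08 ± 0.77, adjusted p = 0.095), in Cy5 alone (2.43 ± 0.76, adjusted p = 0.0521), in a fit of the 2 control groups alone (2.37 ± 0.87, adjusted p = 0.112), with normexp fitted on all spots (adjusted p = 0.125), with median centring (adjusted p = 0.0899), with trend and robust eBayes (adjusted p = 0.0517), and without any 1 of control day 28 replicates 1, 4 or 5 or control day 1 replicates 1, 2 or 3. Without control day 28 replicates 1 and 5 Cyp2f2 differed by 1.01 ± 0.34 (adjusted p = 0.0869) and Scgb1a1 by -0.06. On the 3 slides that held both control groups Cyp2f2 was higher at day 28 by 0.97 to 5.20 and Scgb1a1 by 0.27 to 3.56.

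At day 1 neither gene differed past the threshold between treated and control hearts. Nano-TiO2 minus control was 0.09 ± 0.59 for Scgb1a1 (adjusted p = 0.971) and 0.06 ± 0.71 for Cyp2f2 (adjusted p = 0.982, limma), where 0% of genes passed and 0 of 2 epithelial genes but 8.63% of all genes had an unadjusted p under 0.05. Among treated mice, day 28 minus day 1 was -0.18 ± 0.56 for Scgb1a1 and -0.07 ± 0.68 for Cyp2f2 (limma adjusted p of 0.976 and 0.992), with 0% of all genes past the threshold and 4.49% (0 of 2 epithelial genes) at an unadjusted p under 0.05. The nano-TiO2 difference itself changed between the days by -1.36 ± 0.79 for Scgb1a1 (adjusted p = 0.443) and by -2.44 ± 0.96 for Cyp2f2 (limma adjusted p = 0.235). Here 0% of all genes passed, and Cyp2f2 was among the 14.8% with an unadjusted p under 0.05. The day 28 controls enter 3 of the 5 comparisons, which are therefore not independent.

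**Figure D4:**
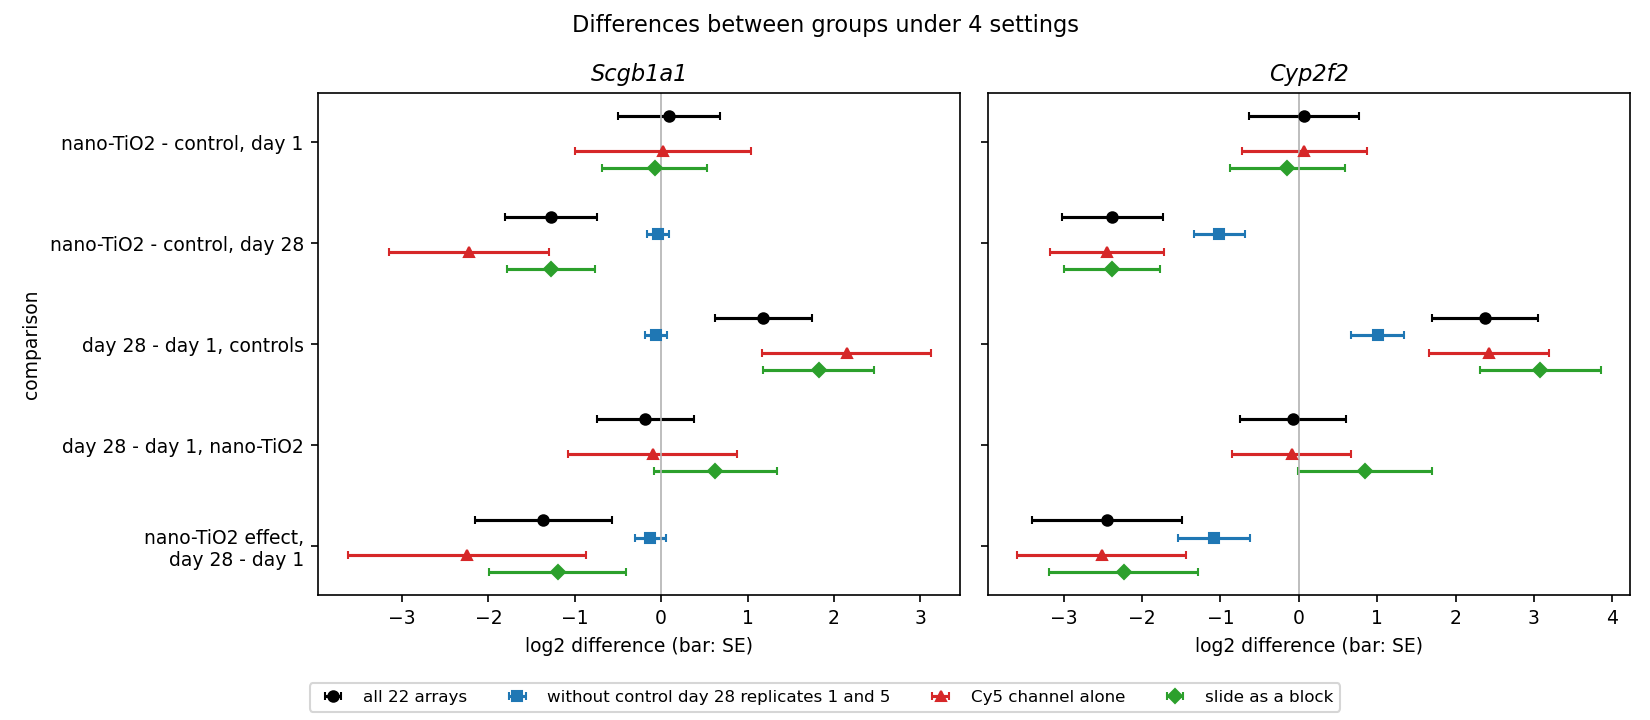
Log2 differences between groups (x axis, bars give the SE) of Scgb1a1 and Cyp2f2 in the 5 comparisons (y axis), with all 22 arrays, without control day 28 replicates 1 and 5, in the Cy5 channel alone and with slide as a block. Leaving out the 2 hearts moves the day 28 difference of Scgb1a1 from -1.27 to -0.04 and that of Cyp2f2 from -2.38 to -1.02. The 2 comparisons without day 28 controls have no value without those hearts.

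Sftpd was detected in 2 control hearts of day 28 alone, so it could enter a test only through the hearts that make up its difference, and no test of it is given. Against bounds in Cy5 the mean of the day 28 controls was 1.38-fold brighter than that of the treated hearts. It was 1.34-fold brighter than that of the day 1 controls. Both came through the 2 hearts alone.

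The 2 hearts carried more than the named epithelial genes. Of 25 measured genes on a list of other club and secretory airway cell genes, 14 (56%) were higher in both than in each of the other 20 hearts, against 1.82% of all 33269 genes on the array (607). All lists were drawn up with earlier results of these data known, and the 2 hearts were singled out by their high airway genes. Such shares therefore describe the 2 hearts and test nothing. Scgb3a1, a secretoglobin of larger airways, stood at 5.03 and 5.23 with at most 0.75 elsewhere, and its net Cy5 was 2925 and 4472. The following genes were chosen after their values were seen. Bpifa1, an antimicrobial protein of the upper airway lining, was at 6.61 and 6.72 with net Cy5 of 9926 and 13183, while the highest ratio elsewhere was 0.39. Lactoferrin (Ltf) was at 4.13 and 5.33, and the gut and airway lectin Reg3g at 3.88 and 4.22. Both were well above background in these 2 hearts and in no other, as were Bpifb1, Muc5b, Gabrp and Agr2 of the same list.

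**Figure D5:**
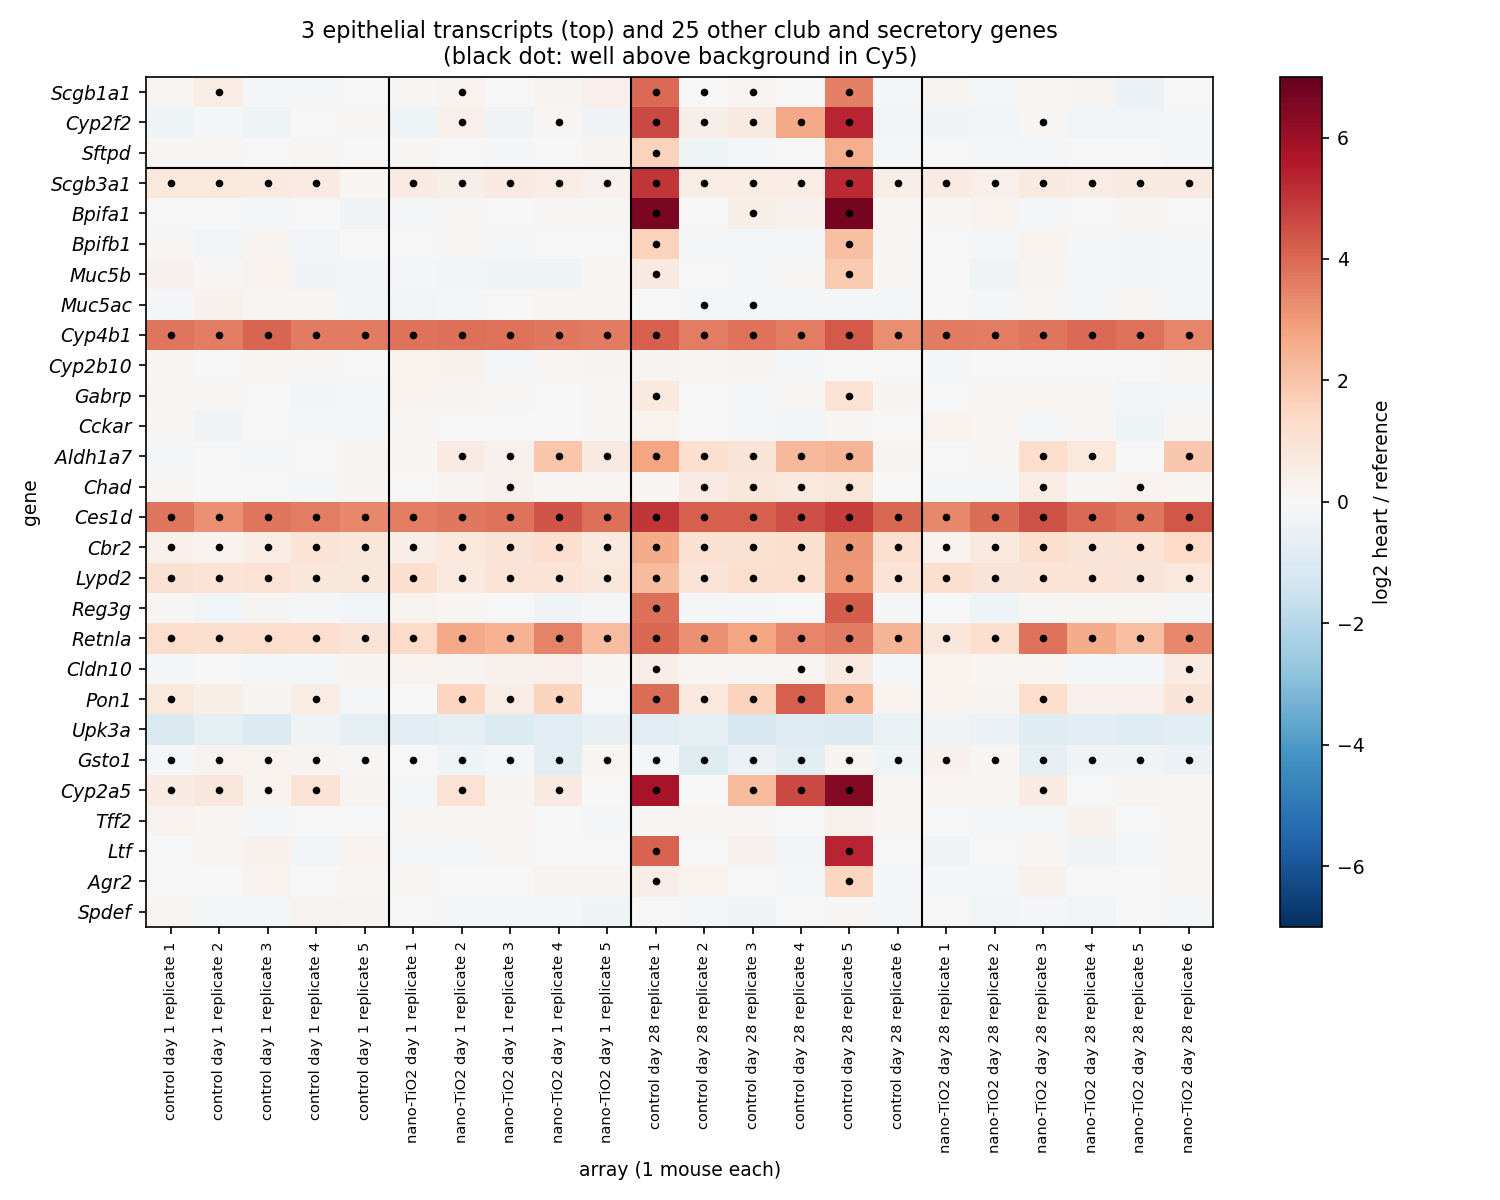
Log2 heart over reference (colour) of Scgb1a1, Cyp2f2, Sftpd and 25 other club and secretory airway cell genes (rows) in each of 22 mice (columns, groups divided by black lines), with dots where Cy5 was well above background. The columns of control day 28 replicates 1 and 5 hold 18 and 19 of the 25 list genes well above background, against 6 to 13 in the others, and genes such as Bpifa1, Reg3g and Ltf are high there.

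Ciliated cell genes were seen in part. Of 19 measured, 10 were dark in every heart, like Foxj1, among them Dnah5 and Rsph1, and 4 (21.1%) were higher in both hearts than in all others. Dynlrb2, a dynein light chain, reached 1.82 and 3.05 against at most 0.29 elsewhere, and the ciliary filament gene Tekt1 1.13 and 1.68 against at most 0.18, both chosen after their values were seen. For alveolar type 2 cells 4 of 21 genes (19%) were higher in both hearts, with Sftpa1, a collectin like Sftpd, at 1.52 and 1.65. Of these 21 genes 6 were well above background on all 22 arrays and 6 were dark on all 22. The dark ones include the type 2 regulators Nkx2-1 and Etv5, and Sftpb and Sftpc were likewise dark. For alveolar type 1 cells 3 of 18 genes (16.7%) were higher in both hearts. Of the 18, 5 were well above background on all 22 arrays and 4 were dark throughout, among them Ager and Pdpn, defining genes of that type. Of 31 general epithelial genes 8 (25.8%) were higher in both, and 14 were dark in every heart, Epcam among them. Krt15, a keratin of basal cells, and Cdh1 were well above background in the 2 hearts and in no other. Krt15 stood at 1.15 and 2.32 against at most -0.31, and Cdh1 at 0.22 and 0.77 against at most 0.01.

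Of the other tissues read, fat and mesothelium were also high in the same 2 hearts. Adipocyte genes were higher in both than in all others for 7 of 12 genes (58.3%), with list means of 5.69 and 5.61 against 2.38 to 5.28 in the others. Mesothelial genes were so for 6 of 11 (54.5%), with list means of 1.41 and 1.39 against -0.53 to 1.32. Liver genes were so for 2 of 26 (7.69%) and atrial genes for 0 of 8. Of 18 genes of thymus, thyroid, gut and oesophagus epithelium 0 were higher in both. The part of these tissues in the epithelial values was not tested.

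Between the control groups, day 28 against day 1, genes of many tissues passed the threshold. The list counts cover only genes that met the filter, which some met through the day 28 controls. With slide as a block 0 of 15503 genes passed (2810 at an unadjusted p under 0.05, limma), so every call given for these lists was lost there. Of 25 measured club and secretory genes 11 were tested, 7 of the 11 were called higher and 0 lower, with a median difference of 1.12 against -0.00 over all genes, of which 7.02% were called higher. Cbr2, a carbonyl reductase of airway and fat, was higher by 1.12 ± 0.30 (adjusted p = 0.0219, limma) and Ces1d, a carboxylesterase also found in fat, by 0.94 ± 0.19 (adjusted p = 0.00558). Without replicates 1 and 5, 3 of the 11 were called higher and 1 lower, with a median of 0.54, where 3.71% of all genes were called higher. The 3 include Ces1d at 0.71 ± 0.19 (adjusted p = 0.0368) and Retnla, a secreted protein of fat, airway and macrophages, at 1.79 ± 0.47 (adjusted p = 0.034).

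Among 5 tested ciliated genes 4 were higher and 1 lower, and 3 were called higher, with all arrays and also without the 2 hearts. Tppp3 stood at 1.23 ± 0.25 with all arrays and 1.17 ± 0.28 without them. Rsph9 gave 0.75 ± 0.14 and 0.59 ± 0.13, and Tekt4 0.79 ± 0.13 and 0.77 ± 0.14. Of 19 measured ciliated genes 3, Tppp3 and Rsph9 among them, were well above background on all 22 arrays. Another 10 were dark throughout, like Foxj1. Genes of the type 2 list were called higher for 5 of 12 (2 of 12 without the 2 hearts). Those 12 include Lyz1, Lyz2, Il33, Ctsh, Fasn and Ctsc, well above background on all 22 arrays, while Nkx2-1 and Etv5 were dark. Which cells these calls came from was not tested. General epithelial genes were called higher for 5 of 9 (0 of 9 without the 2 hearts) and type 1 cell genes for 1 of 10, with 1 called lower (1 and 1). Krt19, a keratin of simple epithelia and mesothelium, was higher by 1.19 ± 0.29 (adjusted p = 0.0132, limma) and by 0.93 ± 0.31 without the 2 hearts (adjusted p = 0.0848). Mesothelial genes were called higher for 10 of 10 (9 of 10), adipocyte genes for 6 of 11 with 1 lower (4 of 11 with 1 lower) and liver genes for 5 of 17 (1 of 17). Atrial genes were called higher for 4 of 8, with a median difference of 2.43, and smooth muscle genes for 5 of 9 with 1 lower. Genes of lung mesenchyme and vessels were called higher for 5 of 8. Cardiomyocyte genes ran the other way, with 0 of 9 called higher, 5 called lower and a median difference of -0.39.

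Nano-TiO2 against control at day 28 gave 0 calls in each of these lists, with medians of -0.79 for club and secretory genes (10 of 11 lower), -0.42 for ciliated, -0.28 for type 2, -0.08 for type 1 and -0.41 for general epithelial genes, beside -0.01 over all genes. The medians of liver (-1.10), mesothelial (-0.59) and adipocyte genes (-0.91) lay on the same side. Without the 2 hearts they were -0.26 for club and secretory, -0.26 for ciliated, -0.09 for type 2, 0.02 for type 1 and -0.21 for general epithelial genes, and -1.10 for liver.

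Across the 22 hearts the genes with values most like those of Scgb1a1, among 10213 with a symbol, were Scgb3a1 (Pearson r = 0.977, Spearman rho = 0.241), Wfdc2 (0.92), Slc16a11 (0.914), Lypd2 (0.909), Cyp2f2 (0.895), Dgat1 (0.87), Mal2 (0.862) and Cldn3 (0.859). Leaving out replicates 1 and 5 brought r with Scgb3a1 to 0.045 and with Cyp2f2 to -0.003, and the highest of the 8 to 0.045, so this likeness rests on 2 mice. The genes most like Cyp2f2 included Cyp2a5 (Pearson r = 0.973, Spearman rho = 0.639), Cldn3 (0.969), Mal2 (0.959), Wfdc2 (0.944), Slc16a11 (0.936), Cyp2a4 (0.93) and Scgb3a1 (0.907). Here r without the 2 hearts was 0.944 with Cyp2a4, 0.929 with Cyp2a5, 0.847 with Cldn3, 0.79 with Mal2, 0.608 with Wfdc2, 0.498 with Slc16a11 and -0.071 with Scgb3a1. Cyp2a4 and Cyp2a5 are enzymes of liver, and Cyp2a5 is also on the club and secretory list. Cldn3, a tight junction protein, and Mal2 are found in many epithelia. Among these 20 hearts replicate 4, with its liver signal, has the highest Cyp2f2, at 2.67 against at most 0.61 in the others. That 1 mouse weighs heavily in these r values, and r without it was not computed.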

How the data were processed

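Heart RNA of 22 mice was measured on 2-colour arrays. Per spot and channel, the deposited files of the scanner give a median intensity and a local background intensity, and they add a log10 ratio of Cy5 over Cy3 made by Agilent Feature Extraction 10.7.3.1, per the file headers (9.5.3.1 per the submitters' processing notes). The authors also deposited a series matrix of log2 values, whose method and centring are not given in the sources used here. Mean intensities had been planned, but median intensities were used.

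Background was corrected with normexp (offset 50, limma 3.58.1 in R 4.3.3), fitted without spots marked for an uneven background, and loess was run within arrays with control spots at weight 0. Marked spots (0.299%) were left out. Of 41174 probes 23374 matched a symbol through RefSeq accessions. The filter asked for a Cy5 spot well above background on 5 or more of 22 arrays. Of several probes passing it, the one with the highest mean Cy5 stood for a gene, which gave 15503 genes (10478 with a symbol). Groups were compared with limma (a mean per group, eBayes), with Benjamini-Hochberg over all genes and a threshold of 0.05. The fit was tested on simulated data for 15503 genes at day 28. For arrays, their number limits the precision. Bounds set the mean log2 Cy5 of the bright group against the dim group's mean of, per array, the higher of the dimmest detected probe and the probe itself. They are ratios of group means, not lower limits on a difference between groups, and are open to dye bias.

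The genes and lists were chosen with earlier results of these data known. Named were all 7 genes, for the 2 tested the 8 genes of highest Pearson r, up to 4 genes per list with the most detected arrays, and the tissue checks. One gene that this rule names is not reported here. Lists of smooth muscle (0 of 9 genes higher in both of the 2 bright hearts), lung mesenchyme and vessel (1 of 11), cardiomyocyte (0 of 9) and alveolar macrophage and granulocyte (0 of 12) were also read. Alternatives covered background, ratio source, normalization, filter, probe choice, variance model, samples, slide, scan day and each array left out. Figures were drawn with Python 3.11.15 and matplotlib 3.10.9.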

Additional observations from a re-analysis of the deposited data

How the results depend on the processing

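The labels give no replicate numbers, so mice were paired only by slide, in the fits with slide as a block. Scgb1a1 and Cyp2f2 at day 28 kept a negative difference under all 29 alternatives each (Scgb1a1 from -2.22 to -0.04, Cyp2f2 from -4.15 to -1.02), and none passed the threshold (lowest adjusted p 0.305 and 0.147). The number of epithelial genes past the threshold between the control groups went from 1 to 0 with normexp fitted on all spots, median centring, the filter at 11 arrays (where neither gene was tested), trend and robust eBayes, only the compared groups, slide as a block, Cy5 alone and without control day 28 replicates 1 and 5. Leaving out single arrays gave 0 to 1. In this comparison 1623 genes passed in all, against 79 with normexp on all spots, 87 with median centring, 0 with slide as a block, 3864 with scanner ratios, 753 without the 2 bright hearts and 958 to 2069 without single arrays. At day 1, 0 to 21 genes passed without single arrays and 7 with scanner ratios. At day 28 it was 0 to 3, 1 with plain subtraction and 8 without the 2 hearts, and for the change between days 0 to 311, 45 with scanner ratios and 6 with scan day as a block. Signs turned with slide as a block at day 1 (Cyp2f2 -0.15, Scgb1a1 -0.0768) and between days under nano-TiO2 (Cyp2f2 0.84, Scgb1a1 0.63), without nano-TiO2 day 1 replicate 2 (Cyp2f2 -0.0374 at day 1 and 0.0279 between days), and for Scgb1a1 between controls without the 2 hearts (-0.0571). Without single arrays Cyp2f2 ran from -0.0374 to 0.123 at day 1 and from -0.131 to 0.0279 between days under nano-TiO2. The cause was not tested.

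Detection depended on the flag. By the scanner's positive-and-significant flag Scgb1a1 was detected in 4 control and 5 nano-TiO2 hearts of day 1 and in 6 and 6 of day 28, Cyp2f2 in 4 and 4 of day 1 and in 6 and 3 of day 28, Sftpb in 1 and 0 and in 3 and 0, Sftpc in 1 and 3 and in 5 and 0, and Foxj1 in 0 and 1 and in 2 and 0. Above 95% of negative controls, in the same order, the counts were 2, 4, 5 and 4 for Scgb1a1, 2, 3, 5 and 2 for Cyp2f2, 0, 2, 3 and 0 for Sftpb, 1, 2, 2 and 0 for Sftpc and 0, 0, 2 and 0 for Foxj1. Sftpd kept its 2 control hearts of day 28 by both. Spots this close to background give no order between hearts.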

Other observations

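Genes seen in the 2 bright hearts and nowhere else were counted over the whole array, after their values were known. On control day 28 replicates 1 and 5 and on no other array, 31 genes were well above background, 24 of them with a symbol, and 11 belonged to the epithelial set or its lists. Those outside the lists included Tspan1, a tetraspanin of secretory epithelia, at log2 ratios of 2.67 and 3.21 with at most 0.24 elsewhere, and Clca1, a goblet cell protein, at 2.00 and 0.50 with at most 0.37 elsewhere. Aqp3, a water channel of basal epithelial cells, was at 0.28 and 1.19, and Krt23 at 0.71 and 1.19. Sharing genes was not particular to these 2 hearts: control day 28 replicates 3 and 4 shared 144 genes that no other heart showed. Those arrays had the largest shares of probes detected, 52.8% and 49.2%, against 41.4% and 39.9% in replicates 1 and 5. The counts 144 and 31 are therefore not a like comparison. The alveolar type 1 gene Aqp5, a water channel that airway glands also carry, was at -0.12 and 1.44 in replicates 1 and 5 against at most -0.74 in the other 20 hearts.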
